A study of Mus musculus with 20 samples.

Results

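The proteasome subunit genes described here are the 36 genes measured on the arrays whose symbol is Psma, Psmb, Psmc or Psmd followed by a number, without the interferon-inducible Psmb8, Psmb9 and Psmb10. They were chosen by symbol, and 54 of the 57 rows annotated to them passed the filter, which asked for a value on 4 or more arrays at every time. The 36 genes stood among 17051 genes tested, and each of the 36 had a value on all 20 arrays. A gene was the mean of its rows: 21 members had 1 row and 15 had several. The symbol rule also brought in Psma8 and Psmb11, which encode subunits known from testis and from thymus. It brought in Psmd5, Psmd9 and Psmd10 too, which encode assembly chaperones and not subunits. For brevity all 36 are called proteasome subunit genes below.

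Murine MLE12 cells, a lung epithelial line, received either NICD1-pIRES-DsRed2 or the empty vector (EV) with Lipofectamine2000. NICD1 is the intracellular part of the receptor Notch1, which acts in the nucleus once the receptor has been cleaved. RNA was taken 12, 24 and 48 h after transfection, and each dual-colour Agilent array carried NICD1 RNA and EV RNA of the same time. The 12 h group had 6 arrays and the 24 and 48 h groups had 7 each, with the dyes swapped in a balanced way. The expression was transient, all cells came from 1 line, EV cells went through the same transfection, and the sources used here do not say whether transfected cells were sorted. The files hold ratios alone, so neither the level of a gene nor the level of lung epithelial markers could be judged. All values below are log2 ratios of NICD1 over EV, so a value below 0 means less RNA in NICD1 cells. In such bulk RNA, a smaller number of cells that express a gene and less RNA per cell cannot be told apart.

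The proteasome is the barrel-shaped protease that degrades ubiquitin-tagged proteins in the cytosol and nucleus. Its core particle, called 20S, is made of outer alpha rings, which control entry, and inner beta rings, which hold the peptidase sites. The regulatory particle, called 19S, sits on the core: its base contains a ring of ATPases that unfold substrates, and its lid carries the enzyme that removes ubiquitin. Subunits are needed in fixed proportions, and many of their genes are known to be raised together by the transcription factor Nfe2l1 when the proteasome is impaired. After interferon, the peptidases of newly made particles are exchanged for Psmb8, Psmb9 and Psmb10, which gives the immunoproteasome.

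At 48 h most proteasome subunit genes were lower in NICD1 cells than in EV cells, and at 12 and 24 h none passed the test. Of the 36 members, 21 fell at 48 h (58.3% of members; 13.8% of all genes fell) and 1, Psmd3, rose (14% of all genes rose). The fitted ratio was below 0 for 33 of 36 members, where 50.8% of all genes were below 0. The members' median was -0.30, and the median of all genes was -0.01. The changes were small: none reached an absolute log2 ratio of 1, and 10 reached 0.5. Tests were limma's moderated tests with Benjamini-Hochberg adjustment over all 17051 genes, with an adjusted p under 0.05 as the threshold.

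The fall was not even across the 48 h arrays. The median of the 36 members lay between -0.17 and 0.09 on the 12 h arrays and between -0.09 and 0.07 on the 24 h arrays. At 48 h it was -0.12, -0.12 and -0.07 on replicates 1, 2 and 3, and -0.44, -0.60, -0.59 and -0.61 on replicates 4, 5, 6 and 7. The 48 h replicates 1 to 3 thus lay within the range of the 12 h arrays, and replicates 4 to 7 lay below all 12 and 24 h arrays. The number of members below 0 ranged from 11 to 26 of 36 on the 12 h arrays, from 15 to 23 on the 24 h arrays and from 20 to 33 on the 48 h arrays. Both dye orientations showed it: at 48 h the array medians ran from -0.59 to -0.12 where NICD1 RNA carried Cy5 and from -0.61 to -0.07 where it carried Cy3.

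The count at 48 h depended on replicates 5, 6 and 7. With those 3 arrays left out, 0 of 36 members passed in either direction (limma; 2.18% of all genes fell and 1.51% rose), and with replicate 4 left out as well, again 0 passed (0.863% and 0.335% of all genes). With the 48 h arrays fitted alone, which uses their own spread, 0 of 36 passed too, where 0.979% of all genes fell and 0.393% rose. The members' median stayed below 0 in these fits, at -0.16, -0.08 and -0.31 in that order. Ratios were more widely spread on the same arrays: over all genes the SD reached 0.705 to 0.813 on 48 h replicates 5, 6 and 7, where the 12 and 24 h arrays had 0.467 to 0.641. These 3 arrays were also alike. With the dye effect removed, their ratios over all genes correlated at 0.65, 0.65 and 0.69 between pairs. No other pair among the 20 arrays exceeded 0.40. Over the 36 members, replicates 5, 6 and 7 correlated at 0.83, 0.85 and 0.89. The ratio of Nrarp, a direct Notch target, was 1.31, 2.12 and 1.58 on 48 h replicates 1, 2 and 3, and 2.16, 3.10, 3.24 and 2.34 on replicates 4 to 7. The part of the spread, the likeness of these arrays or the Nrarp ratio in the fall of the proteasome genes was not tested.

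**Figure D1:**
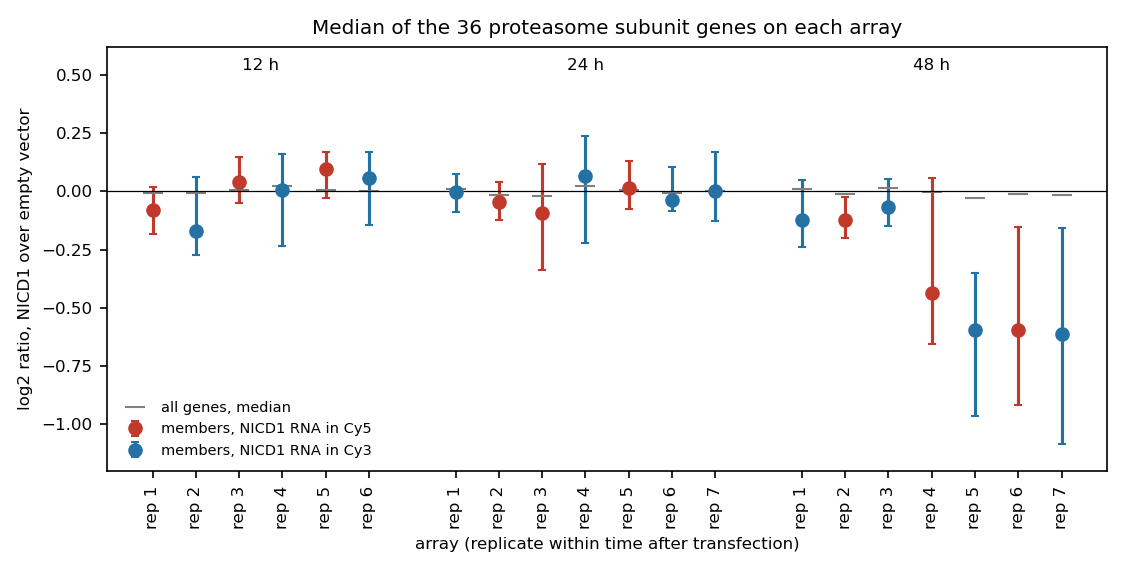
Median log2 ratio (NICD1 over EV) of the 36 proteasome subunit genes on each of the 20 arrays, with bars from the lower to the upper quartile over the 36 genes; colours give the dye of the NICD1 RNA and grey marks give the median of all genes. The 12 and 24 h arrays lie between -0.17 and 0.09, 48 h replicates 1 to 3 between -0.12 and -0.07, and 48 h replicates 4 to 7 between -0.61 and -0.44.

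The counts for each part of the complex stand beside the same shares of all genes at 48 h, 13.8% lower and 14% higher. In the 20S alpha ring, 5 of 7 genes fell at 48 h, all 7 were below 0, and the median was -0.43. Psma6, 1 of the alpha subunits, ranged from -1.28 to -0.12 over the 7 arrays with a median of -0.86, and its fitted ratio was -0.68 ± 0.12 (SE; adjusted p = 0.000717). That left its RNA in NICD1 cells at 62.6% of that in EV cells. For Psma7 the lowest, median and highest values were -1.32, -0.83 and -0.03, with a fit of -0.66 ± 0.12 (adjusted p = 0.000815). Both were below 0 on all 7 arrays, with the highest 3 values on replicates 1 to 3. Psma4 had -1.73, -0.46 and -0.13 as its lowest, median and highest values and a fit of -0.75 ± 0.16 (adjusted p = 0.00209), the furthest from 0 in the ring. In Psma5 the order of the arrays differed: its lowest value was -1.06 on replicate 4, its median was -0.31, and its highest was -0.06 on replicate 7, with a fit of -0.43 ± 0.09 (adjusted p = 0.00199). Psma2 fell less (-0.30 ± 0.10; adjusted p = 0.0365) and stood at 0.39 on replicate 4. Its call ended when 48 h replicate 2, 5, 6 or 7 was left out, with ratios from -0.30 to -0.21 and adjusted p from 0.0588 to 0.145.

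Psma1 and Psma3 did not pass, at -0.18 ± 0.08 and -0.17 ± 0.12. The 3 rows of Psma3 disagreed: 1 fell, at -0.58 ± 0.125 (limma, adjusted p = 0.003 over all rows), and the others stood at 0.16 and -0.09. Both rows of Psma4 gave -0.75.

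The 4 beta ring subunits that carry no peptidase activity had a median of -0.44, and 3 of them fell. Psmb4 ranged from -1.16 to 0.00 with a median of -0.67 and fitted at -0.59 ± 0.11 (adjusted p = 0.000948). Psmb1 had -0.94, -0.49 and -0.01 as its lowest, median and highest values and -0.46 ± 0.09 as its fit (adjusted p = 0.0017). Psmb1 was below 0 on 7 of 7 arrays, and Psmb4 on 6 with the other at 0.00. Psmb3 fell by 0.41 ± 0.09 on the log2 scale (adjusted p = 0.00275), and Psmb2, at -0.13 ± 0.08, did not pass.

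All 3 constitutive peptidase genes fell at 48 h. Psmb5 encodes the subunit with chymotrypsin-like activity, the target of most proteasome inhibitors; it ranged from -0.86 to 0.05 with a median of -0.32 and fitted at -0.42 ± 0.08 (adjusted p = 0.000779). For Psmb6, which encodes the caspase-like subunit, the lowest, median and highest values were -0.68, -0.26 and -0.11, and the fit was -0.30 ± 0.07 (adjusted p = 0.00438). Psmb7, which encodes the trypsin-like subunit, ranged from -2.06 to 0.19 with a median of -0.86 and fitted at -0.84 ± 0.185 (adjusted p = 0.00279). Psmb6 was below 0 on all 7 arrays, whereas Psmb7 was above 0 on 2 of the 7 arrays and had the widest range of the 3. The thymus peptidase gene Psmb11 had 0.03 ± 0.15 and the testis alpha gene Psma8 -0.29 ± 0.215, and neither passed.

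**Figure D2:**
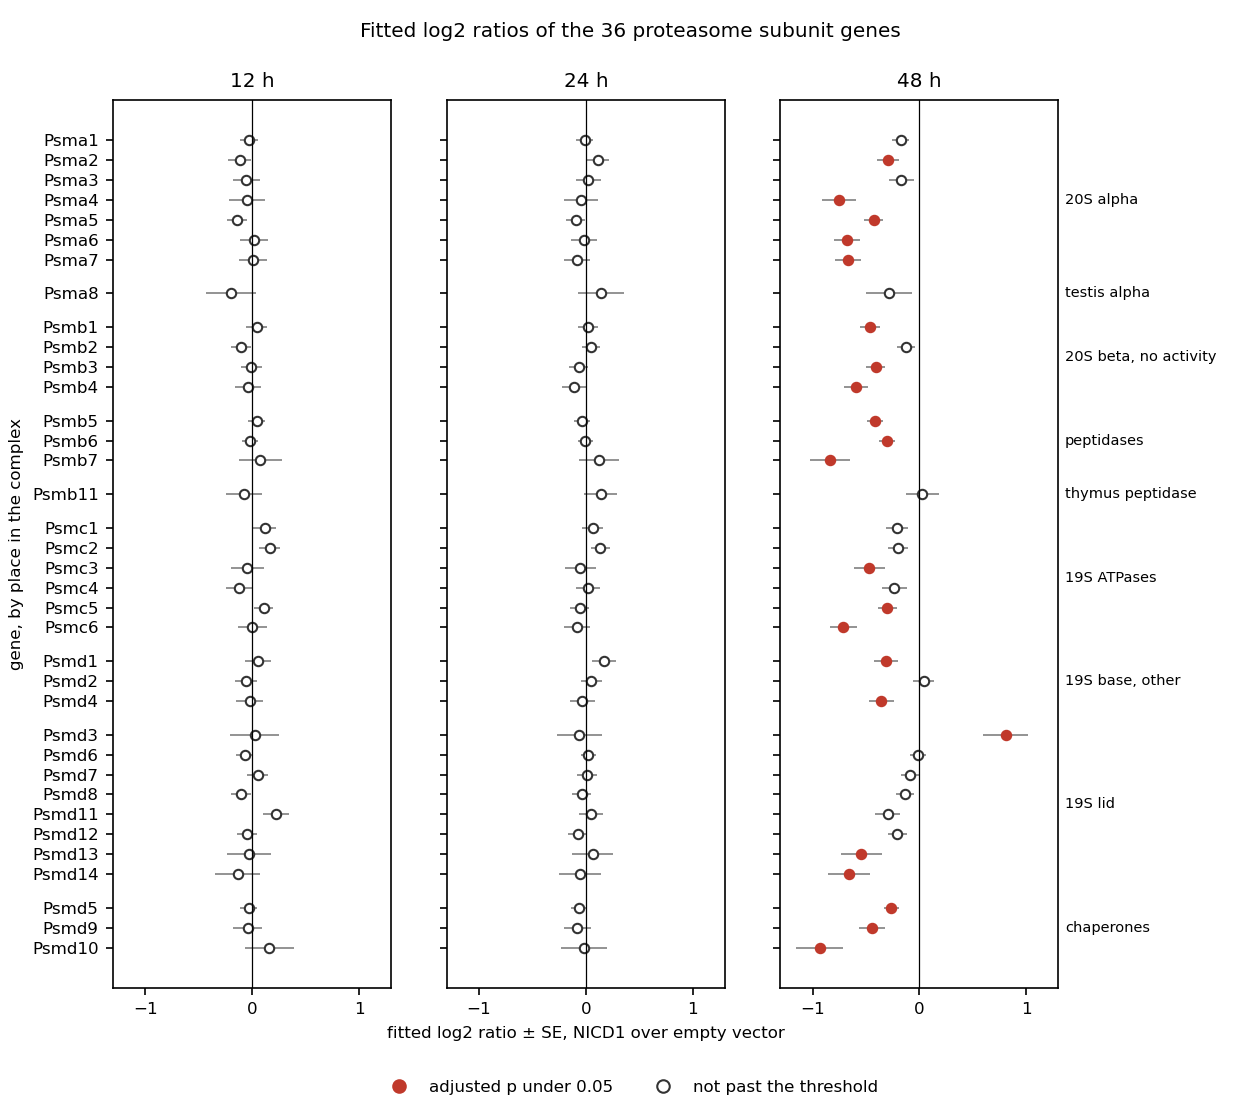
Fitted log2 ratios (NICD1 over EV, bars give the SE) of the 36 proteasome subunit genes at 12, 24 and 48 h, ordered by place in the complex; filled points have an adjusted p under 0.05. No point is filled at 12 or 24 h, and at 48 h 21 filled points lie below 0 and 1, Psmd3, above it.

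Of the 6 ATPases of the 19S base, 3 fell and all 6 were below 0, with a median of -0.27. Psmc6 had the smallest adjusted p of all members: its values ranged from -1.40 to -0.21 with a median of -0.89, and the fit was -0.71 ± 0.12 (adjusted p = 0.000565), or 61.1% of the RNA in EV cells. It was below 0 on 7 of 7 arrays, and its 2 rows gave -0.84 and -0.58. Psmc3 (-0.47 ± 0.14; adjusted p = 0.0197) and Psmc5 (-0.30 ± 0.09; adjusted p = 0.0131) fell as well. Psmc3 no longer passed without 48 h replicate 5, 6 or 7 (-0.40 to -0.33, adjusted p from 0.0714 to 0.0924), nor did Psmc5 without replicate 6 (-0.24, adjusted p = 0.0702). Psmc1, Psmc2 and Psmc4 stood between -0.23 and -0.20 and did not pass. The 2 rows of Psmc2 gave -0.28 and -0.12, of which the first passed.

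Among the other base subunits, Psmd1, a scaffold, had -0.31 ± 0.11 (adjusted p = 0.0455), and Psmd4, a ubiquitin receptor, had -0.36 ± 0.12 (adjusted p = 0.0268). Psmd2, the other scaffold, stood at 0.04 ± 0.10. The 2 rows of Psmd4 differed, at -0.57 and -0.14, and only the first passed. Leaving out 48 h replicate 5, 6 or 7 moved Psmd4 to between -0.33 and -0.25 (adjusted p from 0.0867 to 0.112). The call for Psmd1 was the least stable among the members and held in 15 of 34 alternatives. It was lost without any one of 11 arrays, namely 12 h replicates 3, 4 and 6, 24 h replicates 2, 3, 6 and 7, and 48 h replicates 4 to 7 (-0.33 to -0.20, adjusted p from 0.0521 to 0.181).

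In the lid of the 19S particle, 2 of 8 genes fell, 1 rose, and the median was -0.17. Of all genes 13.8% fell and 14% rose, so these counts lay near the general shares. Psmd14, the deubiquitinase of the lid, fitted at -0.66 ± 0.20 (adjusted p = 0.0162), with values of -1.09, -1.28 and -2.31 on 48 h replicates 5, 6 and 7 and between -0.20 and 0.12 on replicates 1 to 4. Psmd13, a structural lid subunit, had a similar course, at -1.13, -1.32 and -1.84 on those 3 arrays, between -0.21 and 0.28 on the other 4, and a fit of -0.55 ± 0.19 (adjusted p = 0.0398). For both genes the fall thus lay on 3 arrays, and without them Psmd13 was at 0.08. With only 1 array removed, Psmd13 lost its call without replicate 5, 6 or 7 (-0.47 to -0.35, adjusted p from 0.117 to 0.2) and Psmd14 without replicate 6 or 7 (-0.50 to -0.43, adjusted p from 0.0583 to 0.0926). Psmd6, Psmd7, Psmd8, Psmd11 and Psmd12 stood between -0.30 and -0.01 and did not pass. The 3 rows of Psmd12 gave -0.43, -0.19 and 0.00, of which the first passed.

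Psmd3, a lid subunit, went the other way. It had 0.68, 1.45, 1.61 and 2.02 on 48 h replicates 4 to 7, and -0.29, 0.25 and -0.22 on replicates 1 to 3, with a fit of 0.81 ± 0.21 (adjusted p = 0.00747). On replicates 5, 6 and 7, where Psmd3 was highest, the median of the 36 members lay between -0.61 and -0.59. The gene had 1 row, so no second row could be set beside it. At 12 h it stood at 0.02 ± 0.23 and at 24 h at -0.06 ± 0.21.

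The 3 assembly chaperones of the base that carry a Psmd symbol all fell. Psmd10, also called gankyrin, had the largest change of the 36 members: its values ran from -2.16 to -0.03 with a median of -0.65, and the fit was -0.93 ± 0.22 (adjusted p = 0.00354), or 52.3% of the RNA in EV cells. Psmd9 (-0.44 ± 0.13; adjusted p = 0.0131) and Psmd5 (-0.26 ± 0.07; adjusted p = 0.0101) changed less, and Psmd9 did not pass without 48 h replicate 5, 6 or 7 (-0.38 to -0.34, adjusted p from 0.0509 to 0.0683). Psmd10 was below 0 on all 7 arrays but within 0.17 of 0 on replicates 1 to 3.

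**Figure D3:**
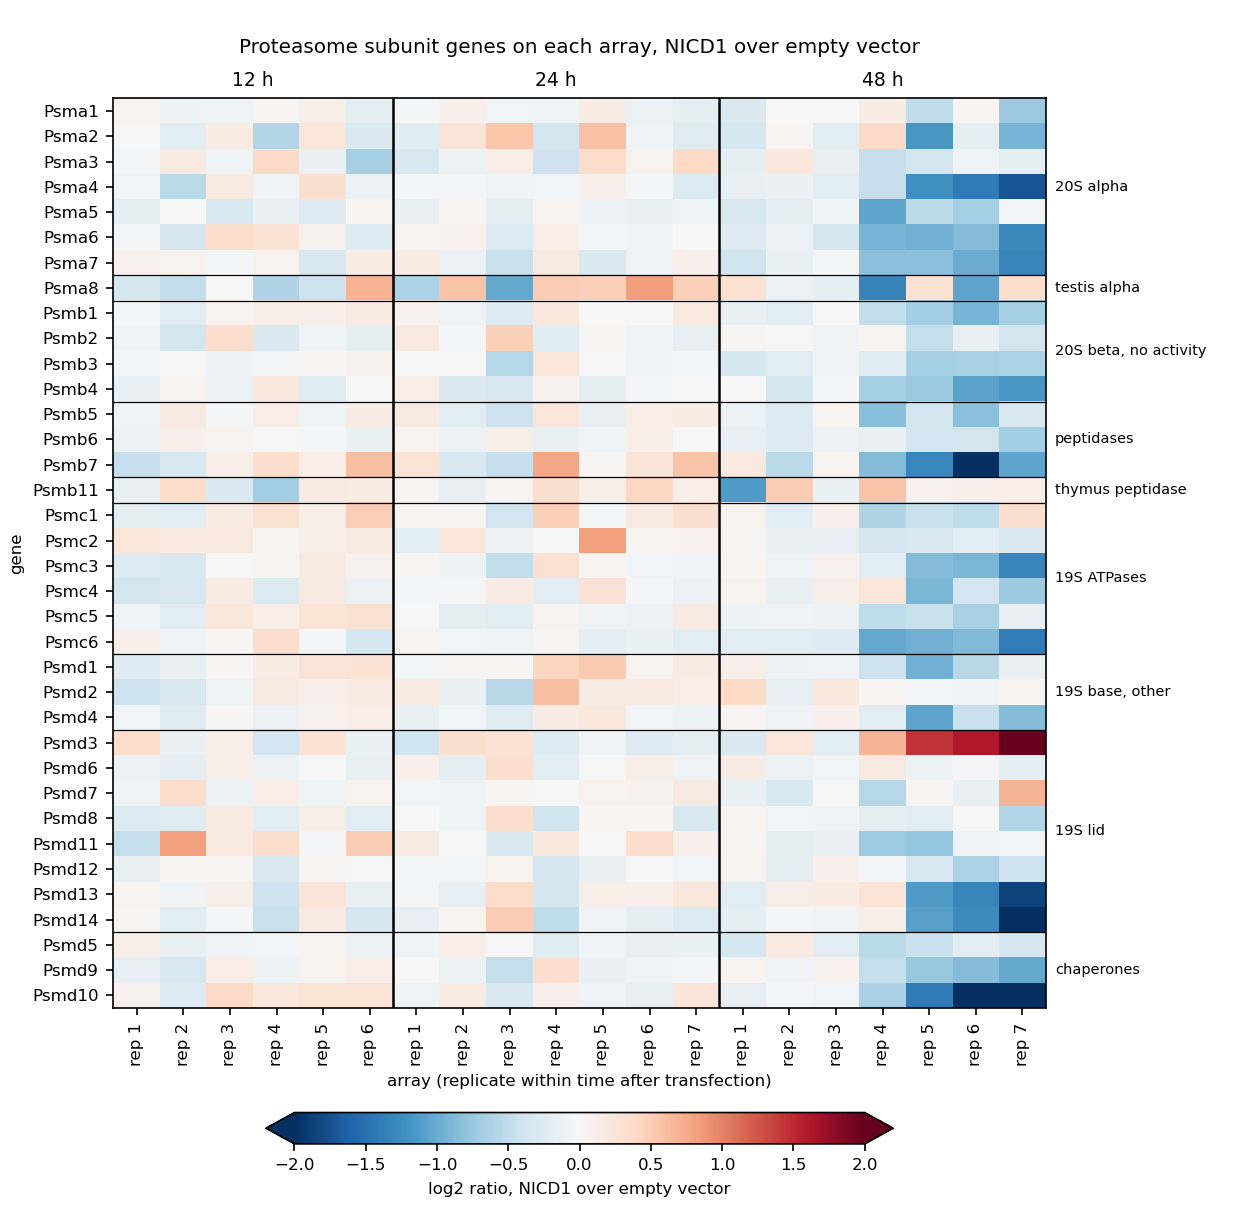
Log2 ratio (NICD1 over EV) of each of the 36 genes on each of the 20 arrays, blue where lower and red where higher in NICD1 cells, with genes ordered by place in the complex and colours ending at -2 and 2. The 48 h replicates 4 to 7 carry most of the blue, and Psmd3 is red on the same 4 arrays.

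On every 48 h array, 10 members were below 0: Psma4, Psma5, Psma6, Psma7, Psmb1, Psmb3, Psmb6, Psmc5, Psmc6 and Psmd10. That is 10 of 36, where 7.52% of all genes were below 0 on all 7 arrays. Over 34 alternative ways of processing or leaving out arrays, 10 of the 22 called members kept their call in 31: Psma4, Psma5, Psma6, Psma7, Psmb1, Psmb3, Psmb4, Psmb5, Psmb6 and Psmc6. The calls of these 10 ended in 3 alternatives: without replicates 5 to 7, without replicates 4 to 7, and with 48 h fitted alone. Without replicates 5 to 7 their ratios ran from -0.43 for Psmc6 to -0.17 for Psmb6. Psma5 stood at -0.41 there, against -0.43 with all 20 arrays. Of the 34 alternatives, 20 left out a single array of any time. Arrays of 12 and 24 h enter the 48 h fit mainly through the shared variance and the dye term.

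Promoter sequences were found for 29 of the 36 genes, from RefSeq on build GRCm38.p6, and the 250 bases before the start were searched on both strands. Those of 4 genes that fell together at 48 h are shown: Psmd10 with the largest change, Psmc6 with the smallest adjusted p, Psmb5 as a peptidase and Psma7 as an alpha subunit. Capitals mark matches to the antioxidant response element TGACNNNGC, which factors of the Nfe2l1 family bind, and to the NF-Y box CCAAT, or to their reverse complements. The windows are chrX:140956712-140956961 (minus strand) for Psmd10, chr14:45329574-45329823 (plus strand) for Psmc6, chr14:54617996-54618245 (minus strand) for Psmb5 and chr2:180042465-180042714 (minus strand) for Psma7, each printed 5′ to 3′ on the strand of its gene.
Psmd10: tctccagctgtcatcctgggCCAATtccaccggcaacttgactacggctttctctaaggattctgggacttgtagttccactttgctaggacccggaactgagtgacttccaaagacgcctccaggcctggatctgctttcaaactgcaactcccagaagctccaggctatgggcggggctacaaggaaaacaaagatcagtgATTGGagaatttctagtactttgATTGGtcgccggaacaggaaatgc
Psmc6: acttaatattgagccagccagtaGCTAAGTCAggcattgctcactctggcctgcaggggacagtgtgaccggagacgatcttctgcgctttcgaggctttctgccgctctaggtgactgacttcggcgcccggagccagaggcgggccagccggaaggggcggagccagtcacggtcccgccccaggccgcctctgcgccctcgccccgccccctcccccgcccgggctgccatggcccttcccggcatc
Psmb5: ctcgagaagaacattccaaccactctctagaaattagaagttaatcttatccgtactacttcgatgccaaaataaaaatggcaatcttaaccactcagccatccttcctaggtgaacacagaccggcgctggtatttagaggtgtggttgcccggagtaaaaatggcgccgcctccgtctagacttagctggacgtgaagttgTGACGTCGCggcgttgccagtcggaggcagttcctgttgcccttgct
Psma7: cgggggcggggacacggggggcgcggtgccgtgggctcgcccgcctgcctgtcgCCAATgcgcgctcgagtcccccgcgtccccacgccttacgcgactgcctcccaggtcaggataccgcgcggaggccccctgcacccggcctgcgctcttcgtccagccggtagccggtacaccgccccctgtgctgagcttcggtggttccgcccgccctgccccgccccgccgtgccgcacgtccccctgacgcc
Psmd10 thus held 3 NF-Y boxes, at 24, 47 and 230 bases before the start, and Psma7 held 1, at 196. An antioxidant response element began 47 bases before the start of Psmb5 and 227 before that of Psmc6.

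Over the 29 genes, 12 (41.4%) held an NF-Y box, where 37.5% of 27025 genes did in windows of the same length. The antioxidant response element was found in 5 of 29 (17.2%), against 11.5% of all genes, namely in Psmb5, Psmb6, Psmc6, Psmd9 and Psmd12. Of the 18 genes with a sequence that fell at 48 h, 4 held it and 7 held an NF-Y box. In the 11 genes with a sequence that did not pass, 1 held the element and 5 the box. A nuclear respiratory factor 1 motif, GCGCATGCG, was found in 1 of 29 (3.4%, against 1.64% of all genes), in Psma2. The RBPJ motif TGGGAA, bound by the partner of NICD1, was found in 3 of 29 (10.3%, against 24.1%), in Psma1, Psmc4 and Psmd14. No matches of different motifs overlapped in these genes. The shares are a description of letters in these windows.

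No member passed the test at the earlier times. At 12 h, 0 of 36 passed (0.282% of all genes did; 0 members had an unadjusted p under 0.05), the median was -0.03, and fitted ratios ranged from -0.20 to 0.22. The 3 members with the smallest p were Psmd11, a lid subunit, at 0.22 ± 0.12 (adjusted p = 0.983; lowest, median and highest values -0.48, 0.27 and 0.82), the ATPase gene Psmc2 at 0.16 ± 0.10 (0.04, 0.19 and 0.25) and Psma5 at -0.14 ± 0.10 (-0.30, -0.17 and 0.03). Psmc2 was above 0 on all 6 arrays at 12 h.

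At 24 h, 0 of 36 passed (1.67% of all genes did; 0 members had an unadjusted p under 0.05), with a median of -0.01 and fitted ratios from -0.11 to 0.17. Psmc2, at 0.14 ± 0.09 (adjusted p = 0.821), ranged from -0.21 to 0.82 with a median of 0.04. Psmd1 had -0.04, 0.07 and 0.52 as its lowest, median and highest values and a fit of 0.17 ± 0.11. Psma2 had -0.37, -0.08 and 0.58, with a fit of 0.11 ± 0.10. The SD of the 36 fitted ratios was 0.09 at 12 h, 0.08 at 24 h and 0.31 at 48 h.

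The differences between times were tested in the same fit. Between 24 h and 12 h, 0 of 36 members differed (0.897% of all genes did; 0 members had an unadjusted p under 0.05). Between 48 h and 24 h, 35 of 36 differences were below 0 with a median of -0.34, yet 0 passed (limma; 2.05% of all genes did). At an unadjusted p under 0.05 there were 18 lower members and 1 higher, and the smallest adjusted p was 0.0512, for Psma6. Without 12 h replicate 3 and 48 h replicate 3, the 2 arrays whose sign was turned, 10 members were lower and 1 higher, and calls over all genes grew as well, to 5.19% lower and 5.87% higher, against 0.985% and 1.07% with all 20 arrays.

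Between 48 h and 12 h, a difference added to the planned tests after the data were seen, 9 members were lower (4.9% of all genes were) and 0 higher (4.26% of all genes were; 1 member had an unadjusted p under 0.05). They were Psma6, Psma7, Psmb1, Psmb4, Psmb5, Psmb7, Psmc5, Psmc6 and Psmd10, with differences from -1.09 to -0.40. The smallest adjusted p was 0.019, for Psmb5 (-0.46 ± 0.11). The count fell to between 0 and 4 when 48 h replicate 4, 5, 6 or 7, or 12 h replicate 1, 3, 4, 5 or 6, was left out, where 2.05% to 3.33% of all genes were lower.

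The inducible peptidases were lower earlier than the constitutive ones they replace. Psmb8, Psmb9 and Psmb10 fell at 24 h, by 0.84, 1.18 and 0.84 on the log2 scale, and stood at -1.43, -1.80 and -0.94 at 48 h. These 3 calls at 48 h held in all 34 alternatives. On each array the ratio of the inducible gene was subtracted from that of its constitutive counterpart. The mean difference was tested with a two-sided exact sign-flip permutation test, with 9 tests adjusted together. These tests were not among the planned ones, and they use the same values as the calls just given, so they add no separate evidence. At 24 h the difference was 1.15 ± 0.43 for Psmb6 minus Psmb9, 0.99 ± 0.37 for Psmb7 minus Psmb10 and 0.82 ± 0.25 for Psmb5 minus Psmb8 (SD, n = 7). Each was above 0 on 7 of 7 arrays (exact p = 0.0156, the smallest that 7 arrays allow; adjusted p = 0.0281).

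At 48 h, 2 of the 3 pairs differed. The difference was 1.48 ± 0.45 for Psmb6 minus Psmb9 and 1.03 ± 0.34 for Psmb5 minus Psmb8, above 0 on 7 of 7 arrays each (exact p = 0.0156; adjusted p = 0.0281). For Psmb7 minus Psmb10 it was 0.13 ± 1.04 and above 0 on 4 of 7 arrays (exact p = 0.703). At 12 h the 3 differences lay between -0.17 and -0.06, and none passed (exact p = 0.125 to 0.781, where 6 arrays allow 0.0312).

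**Figure D4:**
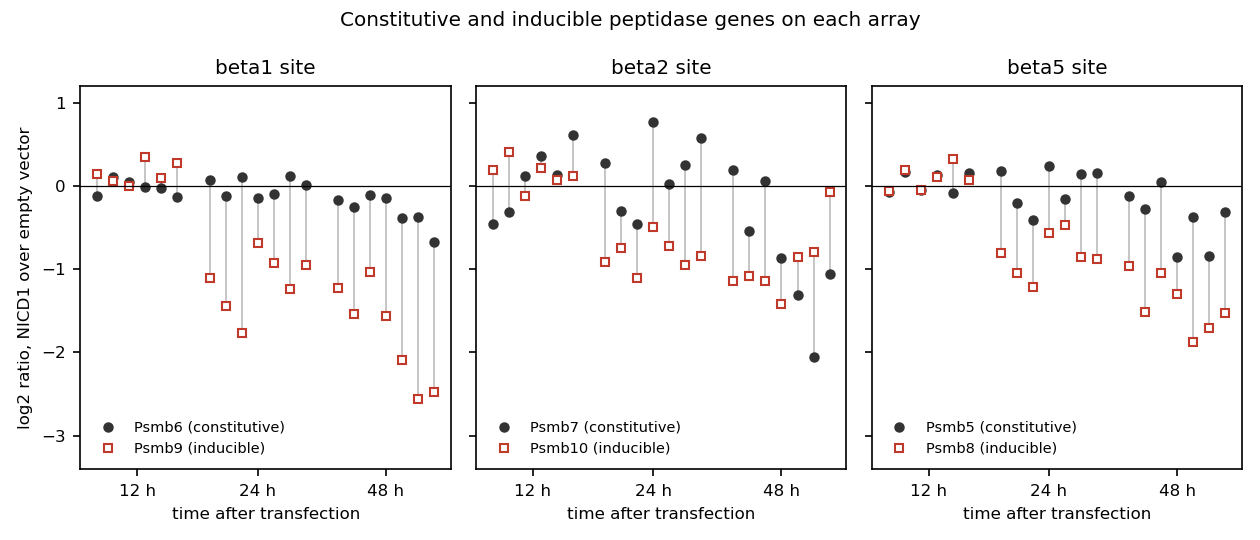
Log2 ratio (NICD1 over EV) of the constitutive (filled circles) and inducible (open squares) peptidase gene of each catalytic site on every array, joined by a line per array. At 12 h the mean differences of the 3 pairs lie between -0.17 and -0.06, the inducible genes lie below on all 7 arrays at 24 h, and at 48 h Psmb7 reaches -2.06, below Psmb10.

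Other genes of the pathway moved in both directions at 48 h, when 13.8% of all genes fell and 14% rose. Among activators and the inhibitor of the core, Psme1, a subunit of the interferon-inducible activator, fell by 0.82 ± 0.11 on the log2 scale (adjusted p = 8.6e-05). Its values lay between -1.23 and -0.26 on the 7 arrays. Psme4, a nuclear activator, rose by 0.56 ± 0.12 (adjusted p = 0.00236), and Psme3 and Psmf1 did not pass. Of 5 core assembly chaperones measured, Psmg3 (-0.36 ± 0.10; adjusted p = 0.0135) and Psmg4 (-0.60 ± 0.10; adjusted p = 0.000432) fell. The others, Psmg1, Psmg2 and Pomp, stood at -0.33, 0.22 and -0.24. Psmg3 missed the threshold without 48 h replicate 6 or 7 (-0.33 to -0.30, adjusted p from 0.0541 to 0.0583).

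Of 7 genes measured for ubiquitin shuttle factors, deubiquitinases bound to the proteasome and Sem1, 3 rose and 0 fell. Of all genes 14% rose and 13.8% fell. Sem1, a small lid subunit that has no Psmd symbol, rose by 0.45 ± 0.10 (adjusted p = 0.00296). The shuttle factors Ubqln1 and Ubqln2 rose by 0.43 ± 0.11 and 0.47 ± 0.11. The deubiquitinases Usp14 and Uchl5 stood at -0.15 ± 0.07 and 0.16 ± 0.10 and did not pass. Among p97 and its cofactors, which extract ubiquitylated proteins for the proteasome, Vcp rose by 0.49 ± 0.10 (adjusted p = 0.00122), whereas Ufd1 (-0.68 ± 0.14; adjusted p = 0.00213) and Faf1 (-0.27 ± 0.10; adjusted p = 0.0385) fell. The call for Faf1 ended without 48 h replicate 2, 4, 5 or 6 (-0.29 to -0.20, adjusted p from 0.0705 to 0.155). Of 3 genes of ubiquitin activation and conjugation, Ube2d3 fell, at -0.26 ± 0.07 (adjusted p = 0.00905).

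The calls of most of these genes ended when 48 h replicates 5, 6 and 7 were left out together. Without those 3 arrays, Psme1 (-0.53) and Psmg4 (-0.55) still passed. Psme4 (0.27), Sem1 (0.35), Ubqln1 (0.10), Ubqln2 (0.22) and Vcp (0.37) did not pass, nor did Ufd1 (-0.27), Faf1 (-0.27), Psmg3 (-0.17) and Ube2d3 (-0.19). With the 48 h arrays fitted alone, Psme1 was the one gene of these 11 that passed. Without 48 h replicates 4 to 7, none of the 11 passed, Psme1 and Psmg4 included.

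Of 7 measured regulators of proteasome gene transcription, 2 rose at 48 h, where 14% of all genes rose. Nfe2l1 had 1.83, 1.19 and 1.98 on 48 h replicates 5, 6 and 7, and between -0.01 and 0.05 on replicates 1 to 4, with a fit of 0.70 ± 0.20 (adjusted p = 0.0133). Any relation of Nfe2l1 to the proteasome genes was not tested. The call for Nfe2l1 was lost without any one of replicates 5, 6 and 7 (0.51 to 0.57, adjusted p from 0.0593 to 0.0726). Nfyc, a subunit of NF-Y, rose by 0.31 ± 0.10 (adjusted p = 0.0279), and its highest value, 0.85, was on replicate 4. Without 48 h replicate 1, 3, 4 or 6 it did not pass (0.23 to 0.29, adjusted p from 0.0536 to 0.111). Nfe2l2, Ngly1, Nfya, Nfyb and Stat3 stood between -0.26 and 0.30 and did not pass.

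**Figure D5:**
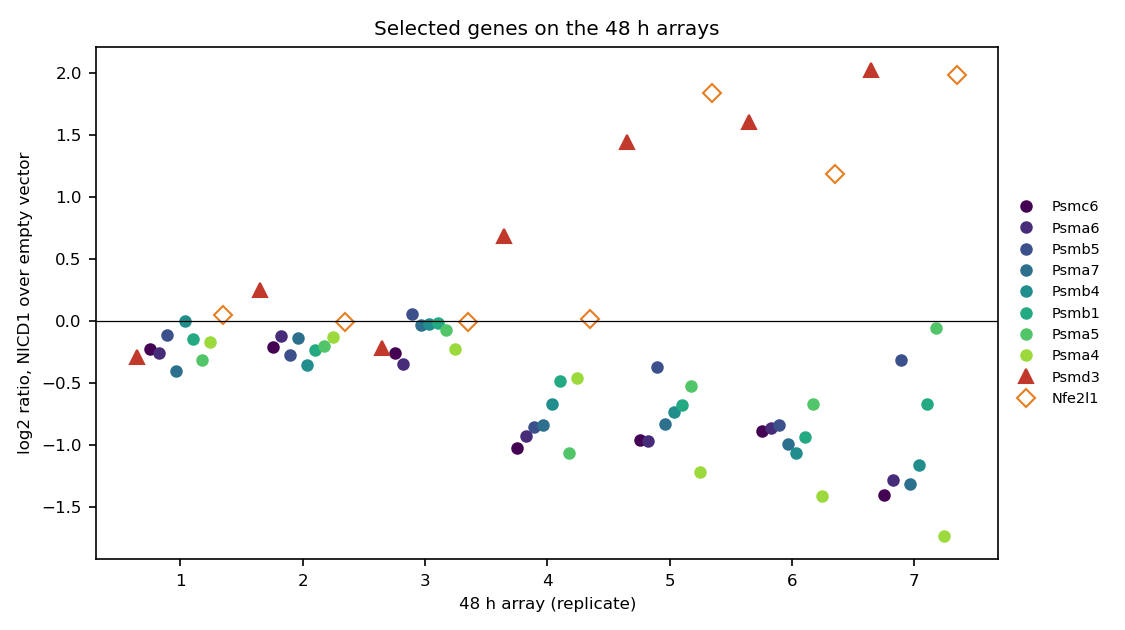
Log2 ratio (NICD1 over EV) on the 7 arrays at 48 h of the 8 members that fell with the smallest adjusted p (circles), of Psmd3 (triangles) and of Nfe2l1 (diamonds), set slightly apart within a replicate. On replicates 5, 6 and 7 Psmd3 lies from 1.45 to 2.02 and Nfe2l1 from 1.19 to 1.98, and on replicate 4 Psmd3 is at 0.68 and Nfe2l1 at 0.02.

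Genes of 3 other large complexes were set beside those of the proteasome. Of 8 subunits of the CCT chaperonin, 3 fell at 48 h with a median of -0.18. Among 9 subunits of the COP9 signalosome, which resembles the proteasome lid, 3 fell with a median of -0.18. The V-ATPase, the proton pump of lysosomes, had 4 of 12 genes lower and a median of -0.30, and none of the 3 lists held a gene that rose. Over all genes 13.8% fell. Among the 48 h arrays, the medians of these 3 lists too were lowest on replicates 5, 6 and 7. They were -0.54, -0.36 and -0.46 for CCT, and -0.35, -0.30 and -0.41 for COP9. For the V-ATPase they were -0.72, -0.30 and -0.93. On replicates 1 to 4 the medians of the 3 lists lay between -0.22 and 0.05. For the proteasome, 21 of 36 genes fell with a median of -0.30. No test of one list against another was made.

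Markers of the lung epithelium and of other cells were given as ratios at 48 h. Of 7 alveolar type II markers 3 rose, with a median of 0.29. Of 7 epithelial markers 1 rose (Krt8, 0.45), but 4 were below 0 and the median was -0.16. Of 7 fibroblast markers 1 rose (Col1a1, 1.10), with 4 below 0 and a median of -0.02. Of 5 macrophage and leukocyte markers 1 fell (Cd14, -0.45), with 4 below 0 and a median of -0.15. None of 5 endothelial markers passed, and their median was 0.09. Over all genes 14% rose and 13.8% fell. Without 48 h replicates 5, 6 and 7, Krt8 (0.25) and Cd14 (-0.23) did not pass and Col1a1 (0.80) did. With replicate 4 left out as well, Col1a1 (0.63) did not pass. The 3 alveolar type II calls were not followed through these fits. Of all genes, 1.51% rose without 48 h replicates 5, 6 and 7. The part of these markers in the fall of the proteasome genes was not tested.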

How the data were processed

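The deposited table held log2 ratios of the 2 channels of each array, with column medians from -0.0179 to 0.0195. The submitters' processing notes name limma. The sources used here do not state the background correction, the normalisation or the direction of the ratios. The submitters' log2 values were used as deposited, except that the columns of 12 h replicate 3 and 48 h replicate 3 were multiplied by -1. As deposited, Nrarp was above 0 on the other 18 arrays and at -1.93 and -1.58 on those 2, so the direction of all columns rests on the known response of Nrarp. The lowest correlation between 2 arrays of one dye orientation, as deposited, was -0.23. Of all values 14.2% were missing, with 37041 to 40068 present per array. Single intensities were not analysed here. The number of arrays limits the precision.

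Rows were named from the array annotation: 33653 rows had 1 symbol, 56 several and 11511 were not listed. A row needed values on 4 or more arrays of each time. The fit used R 4.3.3 and limma 3.58.1, a coefficient for each of the 3 times plus a dye term, all 20 arrays, moderated two-sided tests, and Benjamini-Hochberg adjustment over 17051 genes (threshold 0.05). Values are fitted log2 ratios ± SE; values of single arrays include the dye effect. A single variance per gene served all 3 times. The design calls the replicates independent. The p-values and SEs measure the spread between arrays pooled over the 3 times, not that of the 48 h arrays alone. For Psmd10 the SD over arrays was 0.23 at 12 h, 0.20 at 24 h and 0.94 at 48 h. The SE of its 48 h ratio was 0.216 in this fit and 0.315 with 48 h fitted alone. Simulated data with known changes were used to test the code. Members and lists were chosen with earlier results of these data known. Values of single arrays are given, at each time, for up to 8 members that rose and 8 that fell with the smallest adjusted p, for the 3 with the smallest p where fewer than 3 passed, and for the 3 constitutive peptidases; those of Psmd10, Psmd13, Psmd14 and Nfe2l1 were added after their values were seen. The 48 h minus 12 h difference and the fit without 48 h replicates 4 to 7 were added after the data were seen. The sign-flip tests of the peptidase pairs were not among the planned tests either. Alternatives were another summary of rows, other filters, scaling, centring, weights, robust and separate fits, no dye term, a replicate block, the turned arrays as deposited or left out, and leaving out arrays.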

Additional observations from a re-analysis of the deposited data

Results flagged for a closer look

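In the 111 sets of arrays looked at (each of the 36 members and their median, at each time), 3 held 1 array far from the others by Dixon's criterion, which chance alone meets in about 1 set in 20. Psmb3 stood at -0.5768 on 24 h replicate 3, where the other 24 h arrays lay between -0.0829 and 0.2493. Psmb11 stood at -1.1351 on 48 h replicate 1, where the others lay between -0.1364 and 0.5666. Psmd8 stood at -0.5859 on 48 h replicate 7, where the others lay between -0.2076 and 0.0455.

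The ratios of 9 members differed between 48 h and 12 h by a test of the difference itself (limma, adjusted p from 0.019 to 0.0495). The difference, 48 h minus 12 h, was -1.0937 for Psmd10, -0.9117 for Psmb7, -0.7099 for Psmc6, -0.6912 for Psma6, -0.6693 for Psma7, -0.5501 for Psmb4, -0.5009 for Psmb1, -0.4577 for Psmb5 and -0.4044 for Psmc5. With the replicate block, 0 of the 9 passed.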

How the results depend on the processing

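With 1 array left out at a time, the count of members that fell at 48 h ranged from 14 to 24 and that of members that rose stayed at 1. The count that fell was 15, 14 and 14 without 48 h replicates 5, 6 and 7 in turn, where 10.4%, 9.03% and 10.6% of all genes fell. The counts at 12 h, at 24 h and between them stayed at 0, the medians ranged from -0.0338 to 0.0111, from -0.0208 to 0.0125 and from -0.3549 to -0.2562 at the 3 times, and the count lower at 48 h ranged from 0 to 13 against 12 h and from 0 to 12 against 24 h, with 0 to 1 higher in both. The 13 came without 48 h replicate 2 (7.8% of all genes lower) and the 12 without 48 h replicate 3 (5.87%). At 48 h, 0 fell and 0 rose with each time fitted alone, without 48 h replicates 5 to 7 or without 4 to 7; with array weights 10 fell (5.46% of all genes) and 0 rose; with columns scaled to the same spread 13 fell (8.87%). All of these were among the 21. The count lower at 48 h than at 12 h was 5 with no dye term (3.93% of all genes), 1 with the 2 turned arrays as deposited (1.01%), 5 with scaled columns (3.26%), 1 with array weights (2.6%), and 0 without 48 h replicates 5 to 7 (1.2%) or 4 to 7 (0.64%). Against 24 h it was 10 (5.19% of all genes; 1 higher, 5.87%) without the 2 turned arrays and 7 (4.36%) with genes measured on all 20 arrays, against 0 (0.985%). Without 48 h replicates 4 to 7, Psmd13 stood at 0.0502 (0.0808 without 5 to 7), Psmd3 at -0.0097, Psmd4 at 0.0238, Psmd9 at 0.0046 and Nfe2l1 at -0.0242. The cause was not tested; these fits also use fewer arrays. With the replicate number as a block, 17 members fell at 48 h (12.8% of all genes), all among the 21, and 0 were lower at 48 h than at 12 h (1.9% of all genes). The labels do not say whether arrays of one number share a culture, and correlations between arrays cannot decide it. In deviations from the mean of each time, 19 pairs of same-numbered arrays correlated between -0.13 and 0.14, 1 of them over 0.1. The 114 pairs with different numbers ran from -0.21 to 0.21, with 18 over 0.1. Over the alternatives other than leaving out 1 array, the medians ranged from -0.0624 to 0.0038 at 12 h, from -0.0203 to -0.0016 at 24 h and from -0.3409 to -0.0755 at 48 h. The other counts stayed within 1.5 times. Signal over background could not be judged.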
